A study of Homo sapiens with 10 samples.

Results

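IL33 and its relatives of the interleukin-1 (IL-1) family were followed through the mRNA profiles of LS180 cells, an established human colorectal cancer line. The 10 genes were chosen by symbol out of 58870 in the table: the cytokines IL33, IL18, IL1A and IL1B, the antagonist IL1RN, and the receptor genes IL1RL1, IL1R1, IL1RAP, IL1R2 and SIGIRR. IL33 was picked because its level was lower in the libraries lettered B than in those lettered A, and higher in lines with RNASE1 guides than in control lines. Both patterns are therefore given for all 10 genes as a description, without p-values. All lines carried CRISPR interference, in which an inactive Cas9 is led by a guide RNA to a promoter and represses transcription there. The guide lines sg1, sg2 and sg3 carried guides against RNASE1, which encodes a secreted ribonuclease, and the control lines NTC1 and NTC2 carried non-targeting guides. Each line had 1 library of letter B and 1 of letter A, which gave 6 guide and 4 NTC libraries of cells grown without drug. What the letters stand for, and whether a line is 1 clone, is not given in the sources used here, so a p-value here speaks only to variation among these libraries, part or all of which may be technical.

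IL-1 family cytokines are made by epithelial, stromal and myeloid cells and alert neighbouring tissue to damage or microbes. IL-1 alpha, IL-1 beta and IL-33 bind a specific receptor chain that pairs with the shared chain encoded by IL1RAP, and the complex signals through MYD88 and IRAK kinases to NF-kB. IL-18 is made in an inactive form that inflammasome caspases cleave, and it is abundant in gut epithelium. IL-33 resides in the nucleus, is released by damaged cells as an alarmin, and acts on cells that carry ST2, the receptor encoded by IL1RL1. The family has several brakes: IL1RN encodes a receptor antagonist, IL1R2 a decoy receptor, and SIGIRR an inhibitory receptor of epithelial cells.

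Libraries held 39026605 to 45050991 expected counts. RNASE1, the targeted gene, stood at 1.38, 3.75 and 1.57 CPM in sg1 B, sg2 B and sg3 B and at 1.02, 3.36 and 1.66 CPM in their A libraries, against 23.7 and 22.9 CPM in NTC1 B and NTC2 B and 16.4 and 19.1 CPM in their A libraries. CPM is a gene's count scaled to library size, with TMM factors. All 12 markers of colorectal epithelium were detected in these cells, and their summed level was 6592 to 8226 CPM in guide libraries and 6651 to 8265 CPM in NTC libraries. In tissue IL33 is also made by endothelium and fibroblasts, so their markers were examined. The 7 endothelial markers summed to 0.630 to 1.17 CPM in guide libraries and 0.826 to 1.51 CPM in NTC libraries, with KDR and CLDN5 at 0 counts throughout. The 8 fibroblast markers summed to 4.19 to 5.58 CPM in guide libraries and 3.96 to 5.14 CPM in NTC libraries, with COL1A2 at 0. Of the 10 leukocyte and mast cell markers PTPRC, CPA3 and HDC were at 0, and KIT alone averaged 36.3 CPM. The list summed to 31.7 to 45.1 CPM in guide libraries and 32.3 to 37.3 CPM in NTC libraries. In this bulk RNA, fewer cells that express a gene and less RNA per cell cannot be told apart.

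The genes lie on 4 chromosomes of GRCh38, in the GENCODE release 29 annotation. IL33 (ENSG00000137033) lies on chromosome 9 from 6215786 to 6257983 on the plus strand. IL18 (chromosome 11 from 112143251 to 112164117) and SIGIRR (chromosome 11 from 405716 to 417455) are far apart on the minus strand. IL1RAP lies on chromosome 3 from 190514051 to 190659750. The other 6 lie on chromosome 2, where the receptor genes IL1R2, IL1R1 and IL1RL1 fall between 101991844 and 102352037, and IL1A, IL1B and IL1RN between 112773915 and 113134016. IL1RL1 overlaps IL18R1 on the same strand, and the counts of the 2 genes depend on how reads were divided between them.

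Upstream sequence is shown for IL33, the gene on which the description turns, and for IL1RAP and SIGIRR, a receptor gene with nearly equal levels in both letters and the family's most abundant transcript. Each line gives the 250 bases before an annotated start, in the gene's orientation, from RefSeq on GRCh38.p14. RefSeq held such windows for 9 of the 10 genes. IL33 has 2 annotated starts there, and which of them LS180 uses was not measured. The windows are IL33 at chr9:6214899-6215148 (plus strand), IL33 at chr9:6215557-6215806 (plus), IL1RAP at chr3:190513835-190514084 (plus) and SIGIRR at chr11:417398-417647 (minus). Capitals mark GC boxes (GGGCGG on either strand).
IL33, first start: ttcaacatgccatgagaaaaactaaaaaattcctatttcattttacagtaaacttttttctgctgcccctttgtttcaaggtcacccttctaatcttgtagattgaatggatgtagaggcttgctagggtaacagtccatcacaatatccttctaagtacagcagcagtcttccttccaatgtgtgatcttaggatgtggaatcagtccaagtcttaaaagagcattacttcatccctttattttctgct
IL33, second start: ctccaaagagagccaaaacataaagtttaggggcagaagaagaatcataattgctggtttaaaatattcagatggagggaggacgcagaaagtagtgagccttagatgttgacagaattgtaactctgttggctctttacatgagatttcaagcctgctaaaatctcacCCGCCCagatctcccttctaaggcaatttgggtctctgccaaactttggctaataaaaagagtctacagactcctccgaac
IL1RAP: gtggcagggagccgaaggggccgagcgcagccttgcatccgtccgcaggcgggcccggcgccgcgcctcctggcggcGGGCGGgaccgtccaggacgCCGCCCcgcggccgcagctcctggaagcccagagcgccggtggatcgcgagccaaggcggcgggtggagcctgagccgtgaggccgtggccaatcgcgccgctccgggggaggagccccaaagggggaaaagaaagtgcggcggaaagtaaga
SIGIRR: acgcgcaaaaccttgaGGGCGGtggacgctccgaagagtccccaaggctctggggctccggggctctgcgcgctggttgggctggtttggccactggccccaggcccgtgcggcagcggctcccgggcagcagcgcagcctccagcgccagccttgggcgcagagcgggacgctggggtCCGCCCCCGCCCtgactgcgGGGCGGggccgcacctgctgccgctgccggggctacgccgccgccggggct

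The IL33 windows were AT-rich, with 37.6% and 42.4% G and C, against 74.8% for IL1RAP, 76.8% for SIGIRR and a median of 58% over 35116 RefSeq windows. A GC box was found once in the second IL33 window, 76 to 81 bases before the start, and not in the first. IL1RAP held 2 and SIGIRR 4, and 42.6% of all windows held at least 1. The search also covered the TATA box (TATAAA, in 10.7% of all windows), an AP-1 motif (TGANTCA, in 6.57%), a STAT motif (TTCNNNGAA, in 6.57%) and the NF-kB consensus (in 9.96%), on both strands. AP-1 and STAT motifs read alike on both strands, and each such stretch counts once here. None of these 4 motifs occurred in the 4 windows printed. Among the other windows, a TATA box occurred in 1 window each of IL1R2, IL1R1, IL1RL1, IL1A and IL1RN, and GC boxes occurred in windows of IL1R1. AP-1 stretches occurred in both windows of IL1A, which overlap and share a stretch, in 1 of 3 of IL1RN and in 1 of 2 of IL1RL1. STAT stretches occurred in the window of IL1B and in 1 of 4 of IL1R1, and an NF-kB match in 1 of 2 of IL1R2.

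Levels can be compared between genes only per length, here as CPM per kb of annotated exon over the 10 libraries. SIGIRR was highest at 17.8 ± 1.37 CPM per kb (SD, n = 10 libraries). IL33 followed at 8.80 ± 2.69 and IL18 at 6.21 ± 0.927 CPM per kb. Their ranges overlapped, and IL33 exceeded IL18 in 9 of 10 libraries, the exception being NTC2 B. IL1R2 at 0.990 ± 0.211 and IL1RAP at 0.886 ± 0.0445 CPM per kb also overlapped, with IL1R2 higher in 8 of 10 libraries. IL1RN stood at 0.392 ± 0.125 CPM per kb, below IL1RAP in all 10. IL1R1, which encodes the signalling receptor for IL-1, had 109 counts over all libraries, and IL1B had 47 and IL1A 18. These 3 overlapped in range, at 0.0363, 0.0358 and 0.0195 CPM per kb. IL1RL1 had 0 counts in 10 of 10 libraries, which allows up to 0.0666 to 0.0769 CPM per library for 3 counts, counting error only. LS180 libraries thus held mRNA for the alarmin IL33 but none detected for its receptor at this depth.

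**Figure D1:**
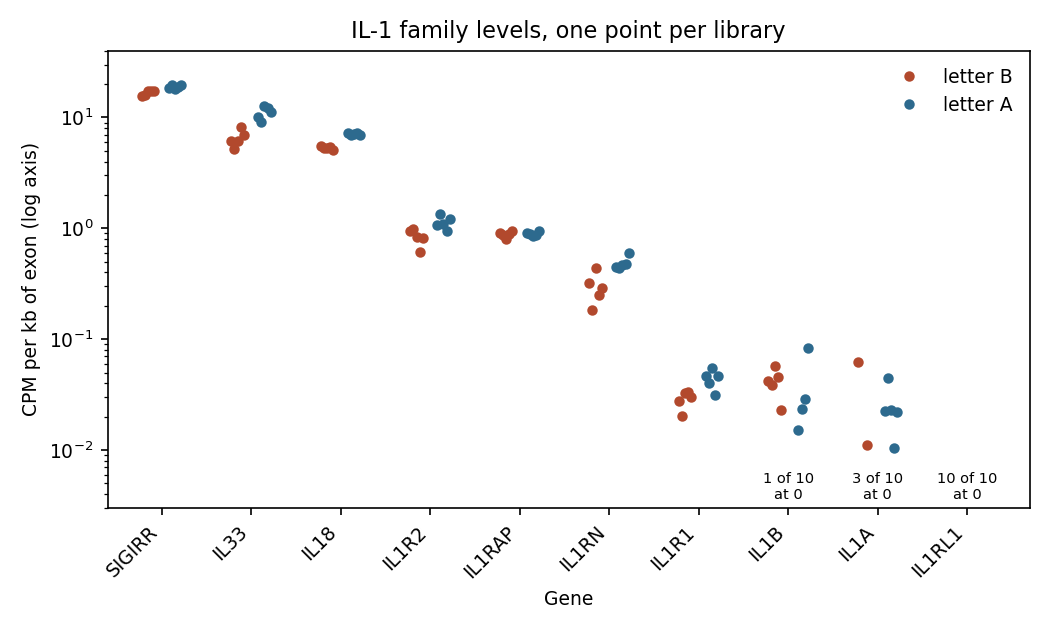
Level of each IL-1 family gene in CPM per kb of annotated exon on a log axis, with 1 point per library and letter B left of letter A for each gene. SIGIRR, IL33 and IL18 sit highest, IL1R1, IL1B and IL1A lie near the floor, and libraries at 0 are written as counts at the foot of the axis.

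Among the members tested, IL33 (-0.76, SE 0.06) and IL1RN (-0.74, SE 0.20) had the largest fitted differences by letter. The SEs do not separate them from each other or from IL1R1 (-0.60, SE 0.32), which was near the floor. IL33 was picked for its letter difference, so its rank among members or all genes restates that choice. In letter B IL33 stood at 19.8 CPM in sg1, 26.8 in sg2, 22.8 in sg3, 20.1 in NTC1 and 16.9 in NTC2. In letter A it stood at 41.4 CPM in sg1, 39.6 in sg2, 36.6 in sg3, 32.6 in NTC1 and 29.9 in NTC2. Every B library lay below every A library, a pattern that 10.2% of 15462 tested genes showed. The letter B level averaged 21.3 ± 3.73 CPM and the letter A level 36.0 ± 4.79 CPM (SD, n = 5 libraries each), a log2 fold change of -0.76 (SE 0.06). Within a line, B held 47.7% of the A level in sg1, 67.6% in sg2, 62.3% in sg3, 61.8% in NTC1 and 56.4% in NTC2. The line sg1 thus had the highest IL33 of all in letter A and the lowest of the guide lines in letter B. Among 9527 genes at 10 CPM or more, 5 were lower still in letter B: KRT17, ADAM19, TFF1, IGFL2 and AC138894.1, named after their values had been seen. The 12 epithelial markers summed to 6592 to 7622 CPM in letter B and 8043 to 8265 CPM in letter A. By letter 4 of the 12 were called higher, 4 lower and 4 not, with a median log2 fold change of 0.00, where 32.1% of all genes were called. The endothelial markers summed to 0.810 to 1.51 CPM in letter B and 0.630 to 0.879 CPM in letter A, and the fibroblast markers to 3.96 to 5.58 CPM in letter B and 4.09 to 5.14 CPM in letter A. Of 3 fibroblast markers tested by letter 1 was called, LUM (-0.63, SE 0.21, edgeR adjusted p = 0.0329), the other 2 had positive values, and the median was 0.09. The leukocyte and mast cell markers summed to 31.7 to 45.1 CPM in letter B and 35.7 to 42.2 CPM in letter A. The part of these in the letter difference of IL33 was not tested.

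**Figure D2:**
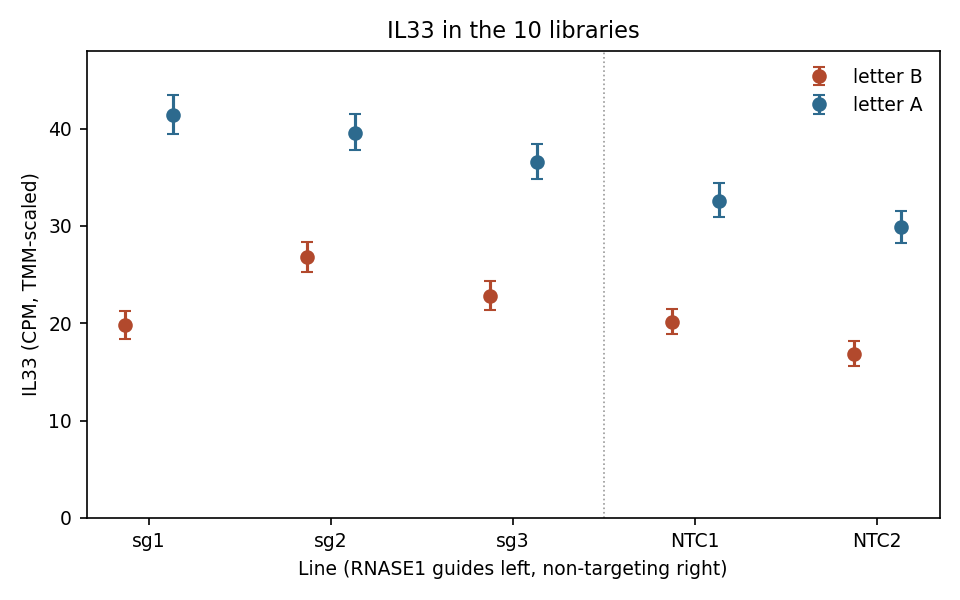
IL33 in CPM for each line, with letter B left of letter A and bars for the exact Poisson 95% interval of the count, which covers counting error only. Each line's B library lies below its A library, and within letter A the 3 guide lines lie at 36.6 to 41.4 CPM and the NTC lines at 29.9 and 32.6 CPM.

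IL33 was also higher in guide lines, by less than by letter. Line means were 30.6, 33.2 and 29.7 CPM in sg1, sg2 and sg3, against 26.4 and 23.4 CPM in NTC1 and NTC2. The guide lines averaged 31.2 ± 1.81 CPM (SD, n = 3 lines) and the NTC lines 24.9 ± 2.12 CPM (SD, n = 2 lines), a log2 fold change of 0.34 (SE 0.06) or 1.27-fold. The line means did not overlap, which held in this direction for 12.3% of 17394 tested genes. Within letter A all 3 guide lines lay above both NTC lines, as in 13.3% of genes. Within letter B sg2 and sg3 did, while sg1 lay between NTC2 and NTC1; 11.3% of genes had all 3 above in letter B. All 3 in letter A with 2 or more in letter B held for 5.42% of genes. In 0 of the 10 members did all 6 guide libraries lie above all 4 NTC libraries, which 0.54% of genes showed. The log2 fold change was 0.32 in B libraries alone and 0.32 in A libraries alone. By guide line it was 0.30 (SE 0.35) in sg1, 0.42 (SE 0.35) in sg2 and 0.26 (SE 0.35) in sg3 relative to the mean of the NTC lines. Those fits had no letter term, and their SEs exceed the differences between the guide lines. No order of the guides is therefore read from them, and a relation to the RNASE1 level was not tested. With 1 library left out the value ran from 0.17 without NTC2 B to 0.51 without NTC1 A, since the summed lines then mix letter with arm. Of 9527 genes at 10 CPM or more, CCND2 and RPS3AP26 had a larger positive fold change, both named after their values had been seen. IL33 was picked for its arm difference too, so this rank restates that choice.

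IL18, the other abundant cytokine, was nearly equal in the arms. It stood at 13.9, 14.2, 13.4, 14.7 and 13.9 CPM in the letter B libraries of sg1, sg2, sg3, NTC1 and NTC2. In letter A it stood at 18.6, 18.9, 18.2, 18.9 and 18.4 CPM in the same order of lines. Letter B held 73.9% to 77.5% of the letter A level in the 5 lines, a log2 fold change of -0.41 (SE 0.04). Every B library lay below every A library, as in 10.2% of 15462 tested genes. By arm IL18 averaged 16.2 ± 0.371 CPM (SD, n = 3 lines) in guide lines and 16.5 ± 0.457 CPM (SD, n = 2 lines) in NTC lines, at -0.01 (SE 0.05). IL33 and IL18 were thus both lower in letter B, but IL18 differed little among lines within a letter. IL1B had 34 counts over the 6 guide libraries and 13 over the 4 NTC libraries, at 0.0715 to 0.257 CPM against 0 to 0.131 CPM. Its log2 fold change by arm was 0.82 (SE 0.52). IL1B passed the low-count filter of that fit only through guide lines, where it was higher, so nothing is read from this value. With 1 library left out, 8 fits kept IL1B, from 0.39 without NTC1 A to 1.33 without NTC1 B. Fits without sg3 A, which held 11 of its counts, or without sg1 B gave no value. IL1B was too low to be tested in the fits of single libraries. IL1A had 6 counts over the guide libraries and 12 over the NTC libraries, of which 6 were in NTC1 B, and was not tested in any comparison.

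IL1RN, the antagonist, was low and variable. In letter B it stood at 1.43 CPM in sg1, 0.820 in sg2, 0.953 in sg3, 1.05 in NTC1 and 0.593 in NTC2. In letter A it stood at 1.53, 1.57, 1.94, 1.45 and 1.44 CPM in the same order of lines. B was below A in all 5 lines, at 41.2% to 93.9% of it, with a log2 fold change of -0.74 (SE 0.20). The guide lines averaged 1.37 ± 0.156 CPM (SD, n = 3 lines) and the NTC lines 1.13 ± 0.165 CPM (SD, n = 2 lines), at 0.29 (SE 0.19). Leaving out NTC2 B gave 0.05, and leaving out NTC2 A gave 0.51. The line means of the arms overlapped. The letter call of IL1RN over all genes, counted further on, ended without sg3 A (-0.66), in guide lines alone (-0.67) and in NTC lines alone (-0.84).

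Among the receptors, IL1RAP was nearly equal in the letters, IL1R2 and SIGIRR were lower in letter B in all 5 lines, IL1R1 was near the floor and IL1RL1 was at 0. IL1RAP, the shared signalling chain, stood at 9.21 to 10.9 CPM in letter B and 9.88 to 10.9 CPM in letter A, at -0.02 (SE 0.05). By arm it averaged 10.2 ± 0.698 CPM in guide lines and 10.3 ± 0.245 CPM in NTC lines (SD over 3 and 2 lines), at -0.01 (SE 0.07). IL1R2, the decoy, stood at 2.56, 1.90, 2.50, 2.91 and 3.04 CPM in the letter B libraries of sg1, sg2, sg3, NTC1 and NTC2. In letter A its levels were 3.37, 2.93, 3.76, 3.30 and 4.15 CPM in the same order of lines. B was below A in all 5 lines (-0.44, SE 0.11), and the letter call of IL1R2 ended in NTC lines alone (-0.32). In the arms IL1R2 stood opposite to IL33, at 2.84 ± 0.375 CPM in guide lines and 3.35 ± 0.347 CPM in NTC lines (-0.23, SE 0.13; -0.34 without sg3 A to -0.11 without NTC2 A), with sg3 at 3.13 CPM inside the NTC line means of 3.11 and 3.60 CPM. IL1R1 stood at 0.142 to 0.234 CPM in letter B and 0.224 to 0.387 CPM in letter A, with B below A in 4 of 5 lines (-0.60, SE 0.32). By arm IL1R1 averaged 0.270 ± 0.0399 CPM in guide lines and 0.239 ± 0.0367 CPM in NTC lines (0.18, SE 0.36), and the line means overlapped.

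SIGIRR, the inhibitory receptor, differed less by letter in guide lines than in NTC lines, in a test that did not pass over all genes. In letter B it stood at 60.7, 60.5 and 61.2 CPM in sg1, sg2 and sg3, and at 54.7 and 55.3 CPM in NTC1 and NTC2. In letter A it stood at 63.7, 66.5 and 68.0 CPM in the guide lines, and at 65.2 and 68.0 CPM in NTC1 and NTC2. In letter B all 3 guide lines lay above both NTC lines, as in 11.3% of 17394 tested genes, and in letter A the arms overlapped. The letter difference averaged over lines was -0.18 (SE 0.04), and the arm difference 0.07 (SE 0.03), which was 0.15 in B libraries alone and -0.01 in A libraries alone. B held 90.0% to 95.2% of the A level in guide lines, against 81.3% and 84.0% in NTC lines. The test of that difference, which the choice of genes did not use, gave 0.16 on the log2 scale (SE 0.06, 95% interval 0.03 to 0.28, edgeR unadjusted p = 0.0221, adjusted p = 0.867). That p was the smallest of the 7 members tested, and 941 of 16411 genes had an unadjusted p under 0.05. A difference between the arms is therefore not shown for SIGIRR.

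**Figure D3:**
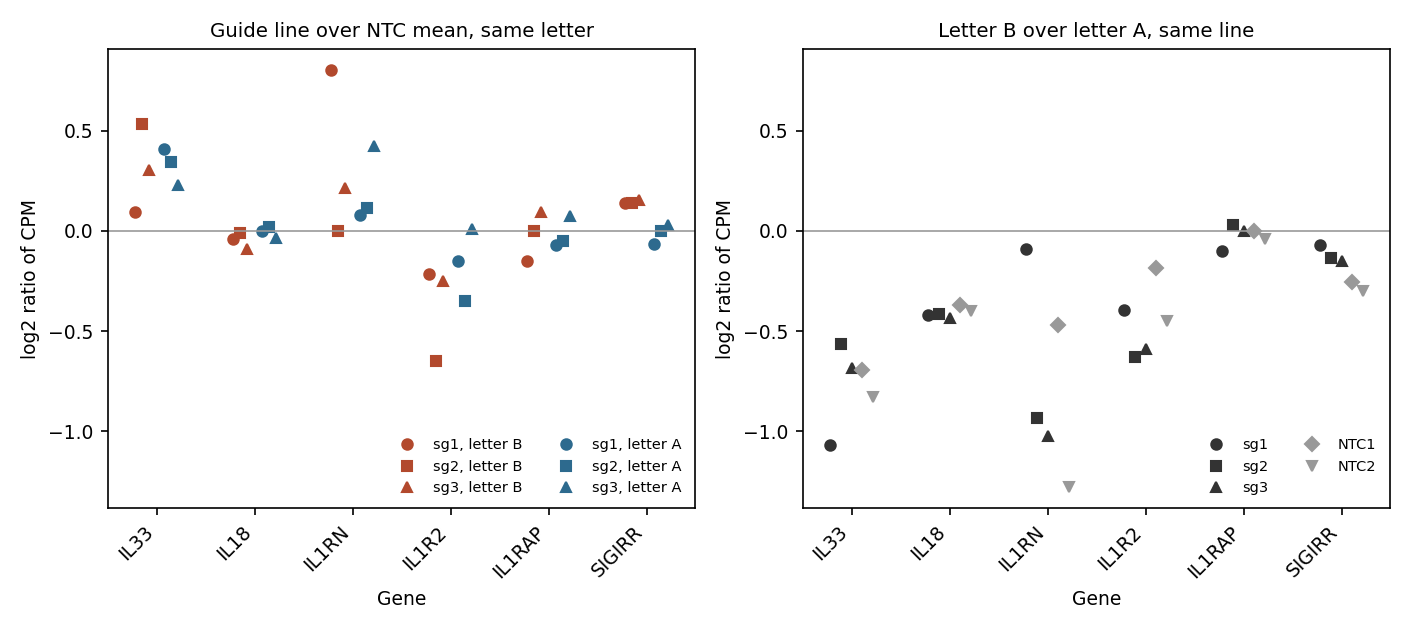
Log2 ratios of CPM for the 6 genes above 1 CPM, as each guide line over the mean of both NTC lines of the same letter (left) and letter B over letter A of the same line (right). IL33 is above 0 for each guide line in both letters and IL18 stays near 0 at the left, while at the right IL33, IL18, IL1RN, IL1R2 and SIGIRR are below 0 in all 5 lines and IL1RAP is near 0.

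Counted over all genes, 7 of the 10 were tested by letter: 5 were called lower in letter B (IL33, IL18, IL1RN, IL1R2, SIGIRR), 0 were called higher, and IL1RAP and IL1R1 were not called. The rule is an adjusted p under 0.05 in the quasi-likelihood test of edgeR with Benjamini-Hochberg adjustment over all genes tested. The letter differed in 32.1% of all tested genes by that rule, with 16.2% lower and 15.9% higher in B. Those 5 genes were also below in B in all 5 lines, as were 18% of all genes; 0 of the 7 were above in all 5 lines, as were 18.3% of all genes. In the comparison of arms 8 of the 10 were tested and 0 were called, where 0.023% of all tested genes were called, 0.0172% higher and 0.00575% lower in guide lines. The median log2 fold change was -0.44 over the 7 genes tested by letter and 0.13 over the 8 tested by arm, against 0.00 for all genes in each comparison. Those 8 include IL1B, which passed the low-count filter only through guide lines. IL33 was chosen on these contrasts and its relatives were added with them in view, so nothing is read from these counts.

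Differences that the choice of genes did not use were tested in the 7 measured members. Among sg1, sg2 and sg3, 0 of 7 were called (edgeR F test, adjusted p = 1 for IL33), where 0% of 16411 genes were called. At an unadjusted p under 0.05 there were 226 genes, and DESeq2 called 8. This fit, like the first one between the NTC lines, had no letter term. The letter difference then counts as spread, and such a fit can miss differences between lines. With the letter as a replicate block 8 genes were called among the guide lines, and 0 of the 7 members (edgeR adjusted p = 0.999 for each). Between NTC2 and NTC1 the log2 fold change of IL33 was -0.17 (SE 0.41, edgeR adjusted p = 1), with 0% of 16411 genes called, 282 at an unadjusted p under 0.05 and 2 by DESeq2. With the letter as a replicate block it was -0.18 (SE 0.09, 95% interval -0.39 to 0.02, adjusted p = 0.949). The interval reaches in size past the difference between the arms, so the control lines were not shown to be alike at the scale of that difference. The letter difference of IL33 was -0.76 in the guide lines alone and -0.76 in the NTC lines alone. The test of their difference gave -0.01 (SE 0.12, 95% interval -0.28 to 0.26, edgeR adjusted p = 0.995). For that test 0% of 16411 genes were called, with 941 at an unadjusted p under 0.05 and 3 by DESeq2.

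Other family members and the signalling pathway were read from gene lists. Of 12 further family genes, 7 had 0 counts or a mean under 0.01 CPM, among them IL36A, IL36B, IL36RN, IL36G and IL18RAP. IL18BP, which encodes the soluble inhibitor of IL-18, rose in letter B (0.59, SE 0.17, edgeR adjusted p = 0.0140), where IL18 itself was lower. The receptor gene IL1RL2 had -0.38 (SE 0.20) by arm, and 0 of 3 tested relatives were called there, against 0.023% of all tested genes. By letter 1 of 2 was called, against 32.1% of all tested genes, and nothing is read from counts this small.

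The signalling genes between receptor and NF-kB were all expressed. Of 29 tested, 0 were called by arm, against 0.023% of all genes, with a median log2 fold change of 0.00 equal to that of all genes. By letter 5 rose and 5 fell, a share near the 32.1% of all genes. UBE2N, which encodes a ubiquitin-conjugating enzyme, fell by 0.14 (SE 0.03, edgeR adjusted p = 0.00108) and NFKBIA, the NF-kB inhibitor, by 0.22 (SE 0.05, adjusted p = 0.00171). MYD88, the adaptor, fell by 0.11 (SE 0.03, adjusted p = 0.0129) and IKBKG, a subunit of the IkB kinase, by 0.16 (SE 0.05, adjusted p = 0.0153). NFKBIB, another NF-kB inhibitor, rose by 0.22 (SE 0.04, adjusted p = 0.000434) and REL, an NF-kB subunit, by 0.24 (SE 0.05, adjusted p = 0.00150). The adaptor genes TRAF3 and TAB2 rose by 0.10 and 0.09. The fifth in each direction were NFKB1 (0.08) and IRAK1 (-0.07).

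The machinery that processes or releases these cytokines was partly present. Of 29 listed genes 22 were tested, and AIM2 had 0 counts while NLRC4, MEFV, GSDMC and CARD18 averaged under 0.01 CPM. CASP1, the caspase that cleaves IL-18 and IL-1 beta, stood at 6.01 CPM, PYCARD, the inflammasome adaptor, at 4.58 CPM and the pore-forming GSDMD at 47.2 CPM. By arm 0 of 22 were called, against 0.023% of all genes, with a median of 0.03. By letter 2 rose, the sensor NLRP1 by 0.50 (SE 0.08, edgeR adjusted p = 0.000239) and the peptidase DPP8 by 0.13 (SE 0.03, adjusted p = 0.0102), and 5 fell; these 7 of 22 are a share near the 32.1% of all genes. CAPN1 (-0.12) and CAPN2 (-0.14) encode calpains, proteases that can cleave IL-33 and IL-1 alpha; CASP4 (-0.12) encodes an inflammatory caspase and MLKL (-0.16) the effector of necroptosis. The fifth was CARD8 (-0.28), which encodes an inflammasome sensor.

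Targets of IL-1 and NF-kB were called in both directions by letter. Of 17 targets tested by arm 0 were called, with a median of 0.04, where 0.023% of all genes were called. By letter 8 of 15 were called, against 32.1% of all genes. CXCL8, which encodes the neutrophil chemokine IL-8, fell by 0.90 in letter B (SE 0.09, edgeR adjusted p = 7.78e-06). BIRC3, which encodes an inhibitor of apoptosis, fell by 0.35 and the early-response gene IER3 by 0.16. The RNase gene ZC3H12A rose by 0.55 (SE 0.08, adjusted p = 0.000159), the atypical IkB gene NFKBIZ by 0.60, the siderophore-binding LCN2 by 0.25 and the mitochondrial superoxide dismutase gene SOD2 by 0.09. The chemokine gene CXCL2 also rose, by 0.62. IL6, CSF3 and CCL2 had 0 counts. Among other epithelial alarmins and type 2 cytokine partners 10 genes were tested by arm and 0 called, against 0.023% of all genes, with a median of -0.04. By letter 1 of 9 was called, against 32.1% of all genes. It was S100A11, an S100 protein gene, which fell by 0.35 (SE 0.04, edgeR adjusted p = 1.34e-05). TSLP, an alarmin that acts beside IL-33 in type 2 responses, averaged 0.473 CPM, with values of 0.37 (SE 0.32) by arm and -0.80 (SE 0.31) by letter and no call. HMGB1, another nuclear alarmin, was abundant at 919.8 CPM, with -0.07 by arm and -0.02 by letter.

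**Figure D4:**
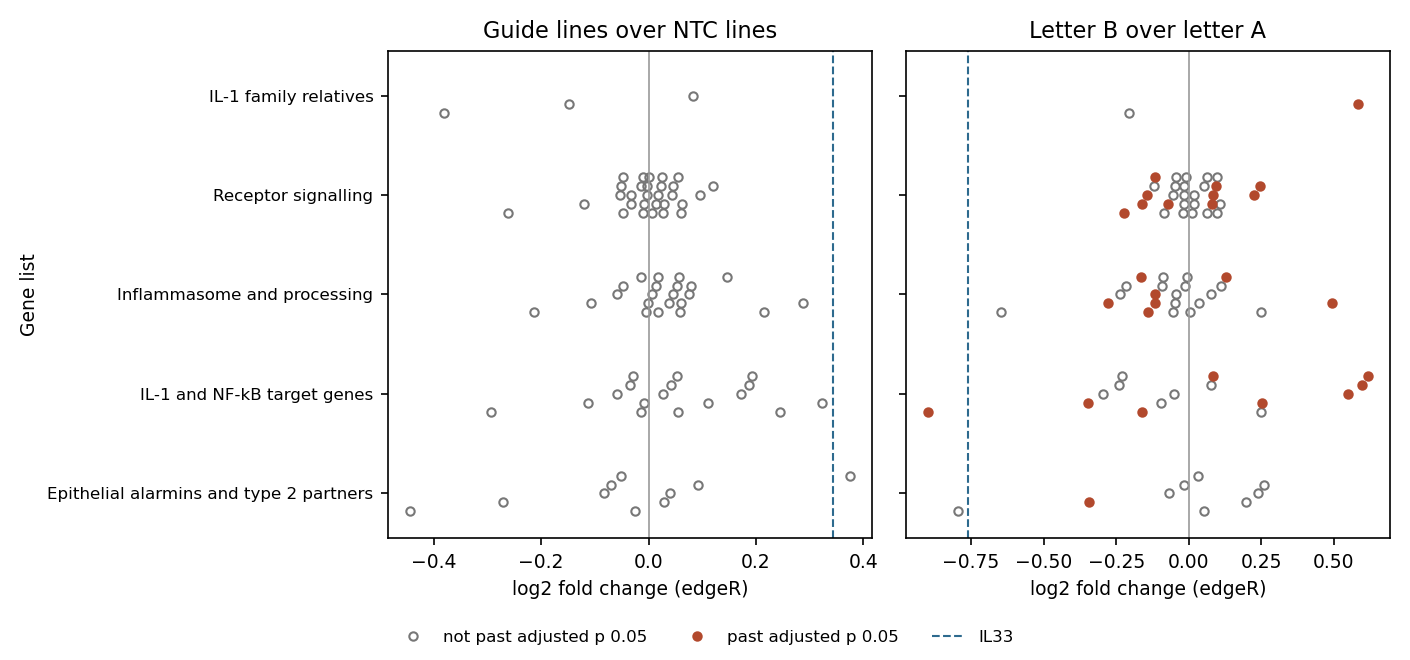
Log2 fold change of each tested gene of the 5 pathway lists, for guide lines over NTC lines (left) and letter B over letter A (right), with filled points past an adjusted p of 0.05 and the dashed line at IL33. At the left, 0 points are filled and the IL33 line at 0.34 lies right of all but 1 point, TSLP; at the right CXCL8 and TSLP lie left of the IL33 line at -0.76.

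The genes whose levels followed IL33 most closely were ranked by Pearson's r of log2 CPM over the 10 libraries, among 13036 genes at a mean of 1 CPM or more. The values share libraries and letters, so they are a description with no test. Highest were DUSP6 (r = 0.985), a phosphatase gene of the ERK pathway, AGPAT1 (0.975), an enzyme of phospholipid synthesis, MALL (0.968), a MAL family membrane protein gene, ID1 (0.959), an inhibitor of helix-loop-helix factors, and CADPS (0.957), a factor of vesicle release. MALL stood at 38.5, 47.5, 40.5, 33.9 and 35.3 CPM in the letter B libraries of sg1, sg2, sg3, NTC1 and NTC2, and at 61.3, 58.2, 56.7, 49.3 and 52.9 CPM in letter A. It was lower in B in all 5 lines, as were 18% of tested genes. Its 3 guide libraries lay above both NTC libraries in letter A, as in 13.3% of tested genes, and in letter B, as in 11.3%. MALL was picked for its r with IL33, so this likeness to IL33 follows from the choice. Lowest were RASL11A (-0.988), which encodes a small GTPase, MUC2 (-0.975), the gel-forming mucin of goblet cells, and LGR5 (-0.967), a stem cell receptor. MUC2 stood at 110.8, 97.6, 116.6, 121.1 and 149.5 CPM in letter B and at 61.3, 73.4, 77.2, 82.7 and 84.7 CPM in letter A in the same order of lines.

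After the mean of each letter was subtracted, the closest genes were ITPR3 (r = 0.989), an endoplasmic reticulum calcium channel gene, AGRN (0.970), which encodes agrin, the ETS factor gene ETV5 (0.957), the co-chaperone gene BAG3 (0.956) and the envoplakin gene EVPL (0.950). DUSP6 still had 0.929 and MUC2 -0.894. Within the family, IL18 had r = 0.878 over the 10 libraries but 0.05 after the letter means were removed, and SIGIRR 0.831 and 0.32. IL1R2 had 0.392 and turned to -0.828. Within letters, IL33 and IL18 thus had almost no linear relation over these libraries.

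**Figure D5:**
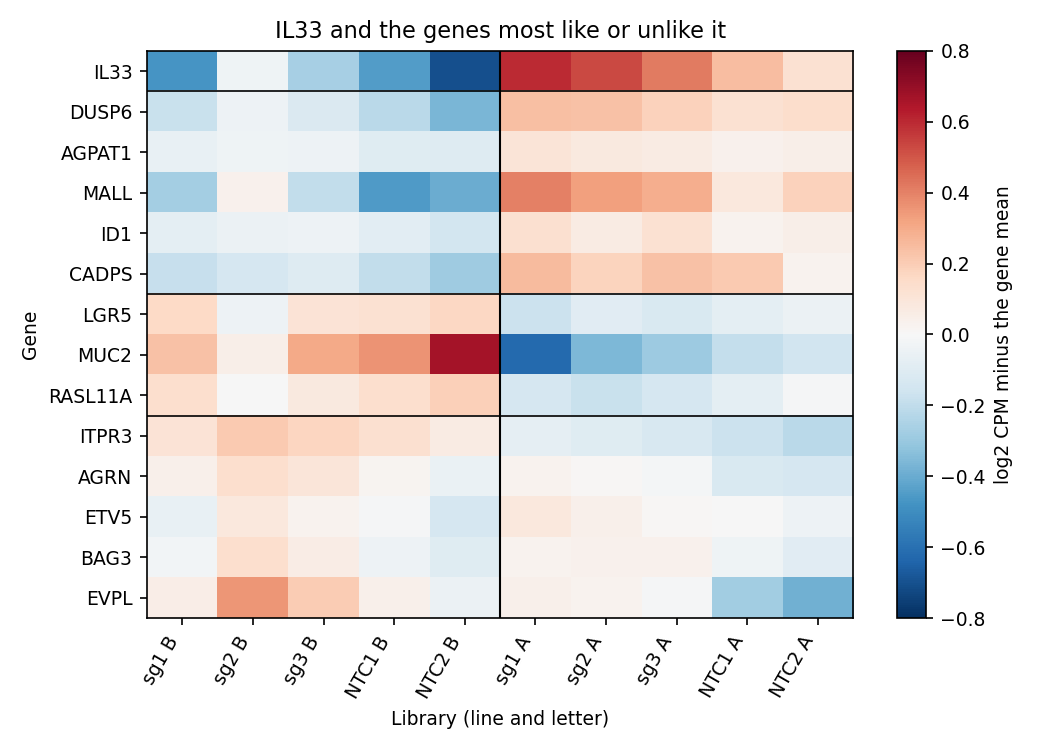
Log2 CPM minus each gene's mean for IL33 and the genes most and least like it, in the 10 libraries with letter B at the left and letter A at the right. The first block below IL33 follows it across letters, the second runs opposite to it, and the third follows it within letters.

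Around IL33, within 500 kb on either side, 8 other genes were tested, a window chosen after the data had been seen. By arm 0 of 8 were called, against 0.023% of all genes, with values from -0.04 in ERMP1 to 0.14 in AL354707.1. By letter 3 of 8 were called, a share near the 32.1% of all genes: ERMP1 fell by 0.20 (SE 0.04, edgeR adjusted p = 0.000903), UHRF2 fell by 0.22 (SE 0.04, adjusted p = 0.00177) and KIAA2026 rose by 0.22 (SE 0.06, adjusted p = 0.0141). RANBP6 and KDM4C, at 26.2 and 28.7 CPM, had -0.08 and -0.01.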

How the data were processed

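Gene-level expected counts, deposited by the authors in 1 table, came from RSEM, as the table's name states. The submitters' processing notes name build hg38 with FastQC 0.11.2, CASAVA 1.8.2 and TopHat2 2.0.8. What each did, and on which annotation, is not given in the sources used here. Per the labels' protocols, polyadenylated RNA was captured, and no step that marks strand is described. Of the values 7.12% were not whole; tests used rounded counts (largest change 0.5). RSEM divides shared reads among genes. Positions come from GENCODE release 29, which 58597 of 58870 identifiers matched.

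Tests used edgeR 4.0.16 (quasi-likelihood, run under R 4.3.3, TMM, filterByExpr, two-sided): arms on counts summed per line (3 against 2), letters with line as a term, and differences among lines and of letter between arms over 10 libraries. Standard errors are the fold change divided by the root of F. Fits were tested on simulated data. Same-lettered libraries deviated together from line means in 10 of 10 pairs of lines (r 0.249 to 0.421 over 13036 genes), so the letter pairs the libraries. Counts of a line's 2 libraries differed by 10.7 to 22.0 times the sampling variance per gene.

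The members and lists were chosen with earlier results of these data known. Named genes were the members; per list, up to 4 genes per direction past the threshold by arm or letter, or else abundant members; and the genes most like or unlike IL33 by r. NFKB1, IRAK1, CARD8, CXCL2, LUM and genes at 0 or named for context, were named after their values were seen. Alternatives were RLE size factors, other filters, DESeq2 1.42.0, letter blocks, single letters, single arms, and leaving out lines or libraries.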

Additional observations from a re-analysis of the deposited data

Results flagged for a closer look

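In 36 groups of 4 to 6 libraries (arms and letters, for each gene with counts), the highest or lowest library was compared with its nearest neighbour, and 2 stood apart; about 1 in 20 groups does so by chance. IL1A in NTC1 B was the highest of the letter B libraries at 0.131 CPM, with the next at 0.0234 CPM, which are 6 counts and 1 count. IL1RN in sg3 A was the highest of the letter A libraries at 1.94 CPM, with the next at 1.57 CPM in sg2 A. Without sg3 A the letter difference of IL1RN was -0.66 on the log2 scale, and its call by letter ended.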

How the results depend on the processing

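IL33 was chosen for its letter and arm differences, so their signs under the alternatives are a description. The letter difference ran from -0.82 to -0.68 with 1 library left out. Its difference by arm ran from 0.17 to 0.51 with 1 library left out, and was 0.32 with the letter as a replicate block. DESeq2 gave no adjusted p by arm for 11803 genes below its own filter, IL33 and RNASE1 among them. IL33 was not called among guide lines, between NTC lines or for the letter difference between arms in any alternative. By arm it was not called in the main fit, but it passed the threshold with no filter, without line sg3 and without sg3 B. IL33 was picked for this contrast, so its calls by arm are no support for a difference. The count of genes called by arm was 254 with no filter, 59 with DESeq2, 2 with the letter as a replicate block, 11 in A libraries alone, 27, 10, 7 and 13 without lines NTC1, sg1, sg2 and sg3, and 1 to 12 with 1 library left out. By letter it was 2689 in guide lines alone, 3299 in NTC lines alone and 3483 to 5081 with 1 library left out. Among guide lines it was 141 with no filter, 8 with DESeq2, 8 with the block and 0 to 2 with 1 library left out. Between NTC lines it was 57, 2, 2 and 0 to 1 in the same order. For the letter difference between arms it was 101 with no filter, 3 at a mean of 1 CPM or more, 3 with DESeq2 and 2 to 8 with 1 library left out. The causes were not tested. Depth limits IL1A, IL1B, IL1R1 and IL1RL1.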
